A study of Mus musculus with 15 samples.

Results

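FpB6CBA and FpB6D2 are mouse embryonic stem cell lines that were both derived by parthenogenesis, the activation of an oocyte without sperm, from oocytes grown inside cultured preantral follicles. FpB6CBA (named FpB6CBA-SNU8 by the submitters) came from follicles of B6CBAF1 females, the offspring of C57BL6 mothers and CBA/ca fathers. FpB6D2 (FpB6D2-SNU2) came from follicles of B6D2F1 females, the offspring of C57BL6 mothers and DBA2 fathers. Follicles were taken from prepubertal females aged 2 weeks. The 3 arrays whose titles name follicle culture and B6CBAF1 were compared with the 3 arrays whose titles name follicle culture and B6D2F1, which makes 6 of the 15 arrays of the series. Each line is 1 derivation, so strain, donor, clone and culture history cannot be told apart between them. The other 9 arrays give levels only: OpB6D2 is a parthenogenetic line from naturally ovulated B6D2F1 oocytes, NmB6D2 came from a natural mating of C57BL6 with DBA2, and R1 is a purchased line from a cross of 129S1/SvImJ and 129X1/SvJ mice, with 3 arrays each.

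A parthenogenetic embryo carries chromosomes of maternal origin only. Imprinted genes, which are normally read from the paternal or the maternal copy alone, are therefore inherited with maternal marks on both copies. Embryonic stem cells correspond to the naive epiblast, which borders the primitive endoderm and the trophectoderm in the blastocyst, and transcription factors such as Nanog and Klf4 keep them in that state. Hypoxia-inducible factor raises genes of glucose use and of oxygen sensing when oxygen is low, or when the enzymes that mark the factor for breakdown are inactive.

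Values are log2 expression values per gene, each from the probe set that is brightest on average. Of 18193 genes on the array, 12813 were tested, which had a value of 3.864 (the overall median) or more on 3 arrays. Across genes, which are not independent replicates, arrays correlated at 0.9943 to 0.9964 within FpB6CBA and at 0.9963 to 0.9964 within FpB6D2, against 0.9751 to 0.9761 between the lines. Replicate 3 of FpB6CBA stood apart in its control probe sets. Its hybridisation controls averaged 9.715, against 10.372 and 10.407 in the other FpB6CBA arrays and 10.021 to 10.109 in FpB6D2. Its poly-A controls averaged 8.852, against 8.009 and 8.046 in the other FpB6CBA arrays and 7.718 to 7.807 in FpB6D2. The difference between 3′ and 5′ actin probe sets, a sign of RNA quality, was 0.659 to 0.757 in FpB6CBA and 0.616 to 0.651 in FpB6D2. The same difference for Gapdh was 0.009 to 0.058 in FpB6CBA and -0.079 to -0.033 in FpB6D2. Neither measure overlapped between the lines, and their part in the results was not tested. The stem cell markers Pou5f1, Nanog, Sox2, Zfp42, Esrrb and Dppa5a were at 8.22 or more in both lines. The blood and endothelial markers Ptprc, Cdh5 and Tyrobp lay below 3.864 in both.

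The lines differed at many genes. A gene was called when its difference reached 2-fold with an adjusted p under 0.05 (limma fit over all 15 arrays, Benjamini-Hochberg). Of the 12813 genes, 1430 (11.2%) were called, 772 (6.03%) higher and 658 (5.14%) lower in FpB6CBA. The 3 arrays of FpB6CBA did not overlap the 3 of FpB6D2 in 62.3% of all genes tested and in 1429 of the 1430 called. The median difference over all genes tested was 0.0016. At 4-fold or more, 139 genes were higher and 97 lower. The arrays are not stated to come from separate cultures, so p-values measure the spread between arrays only. Without replicate 3 of FpB6CBA, 1470 genes were called, 864 higher and 606 lower.

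The largest rise was in Baiap2l1, which encodes an adaptor that shapes actin at the plasma membrane. Its log2 values were 10.86, 10.81 and 10.77 on the FpB6CBA arrays, against 4.21, 4.38 and 4.28 on the FpB6D2 arrays. The groups were far apart, a 91.8-fold difference (log2 difference 6.52 ± 0.12 SE, limma adjusted p = 1.4e-13, 3 arrays per line), and a further probe set differed by 4.95. Ipp, which encodes an actin-binding Kelch protein, averaged 9.53 in FpB6CBA and 5.07 in FpB6D2 (22.1-fold higher). The lipase gene Liph (21.2-fold higher) and the cytochrome P450 gene Cyp2s1 (13.2-fold higher) followed. The other 8 of the 12 largest rises were B4galnt2, Dsp, Dnah12, Ndrg1, Zc3h6, Cldn7, Cldn6 and Krt19, with log2 differences between 3.28 and 3.69. Further probe sets of some of these genes rose by less. That of Liph differed by 1.01, those of B4galnt2 by 0.8 and 2.04, and those of Dsp by 1.36 and 2.83.

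The largest falls were in Pramel6 and Pramel7, members of a gene family of the early embryo and naive stem cells. Pramel6 had log2 values of 2.77, 2.73 and 2.73 in FpB6CBA, against 8.33, 8.34 and 8.43 in FpB6D2. All FpB6CBA arrays lay below the filter value, so that Pramel6 was at least 22.7-fold lower (adjusted p = 2.9e-13). Pramel7 was at least 14.7-fold lower, at 2.86, 2.80 and 2.79 in FpB6CBA and 7.58, 7.79 and 7.85 in FpB6D2. These are related copies, and the probe sets used carry the suffix that marks a match to several transcripts. A further, specific probe set of each fell by less, by 1.22 for Pramel6 and 2.04 for Pramel7 on the log2 scale. Pramel6 averaged 5.76 in OpB6D2, 2.64 in NmB6D2 and 2.92 in R1, so FpB6D2 held the highest mean of the 5 lines and OpB6D2 the next.

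Other large falls concerned the imprinted gene Peg3 and the transcription factor gene Msc. Msc was at 3.97, 3.65 and 4.01 in FpB6CBA, against 8.20, 8.27 and 7.99 in FpB6D2, and the groups did not overlap (19.4-fold lower, adjusted p = 2.1e-12). Ereg, an EGF receptor ligand, was at least 8.42-fold lower, and Mep1b, a membrane metalloprotease gene, was 10.9-fold lower. The X-linked genes Dcaf12l1 and Mcf2 and the zinc finger gene Zfp936 also belonged to the 12 largest falls. For the other 3, Pdxdc1 (28.4-fold lower), Prune2 (at least 10.5-fold lower) and Xaf1 (10.7-fold lower), the probe sets of the gene disagreed. Further probe sets of Pdxdc1 differed by 0.59, 0.51 and 3.27, those of Prune2 by 0.21 and 0.41, and that of Xaf1 by 1.15. Pdxdc1 and Prune2 lost their calls when the probe sets of a gene were averaged.

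Over all called genes, 612 had a further tested probe set. Every further probe set had the same sign in 524 of them, and at least 1 was called the same way in 312. In 7 genes a further probe set was called the opposite way, namely Atf6, Pdxdc1, Snhg1, Snrnp48, Wdr33, Xaf1 and Zfp53, which were singled out after their values were seen. A difference that reached from below the filter value in 1 line to 6 or more in the other was found for 13 genes higher and 12 genes lower in FpB6CBA. All folds rest on 1 probe set per gene. The lines differ in parental strain, and strain differences in the sequence under the probes were not examined.

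Gene lists placed these differences in pathways and cell types, as the plot of differences by gene list shows.

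**Figure D1:**
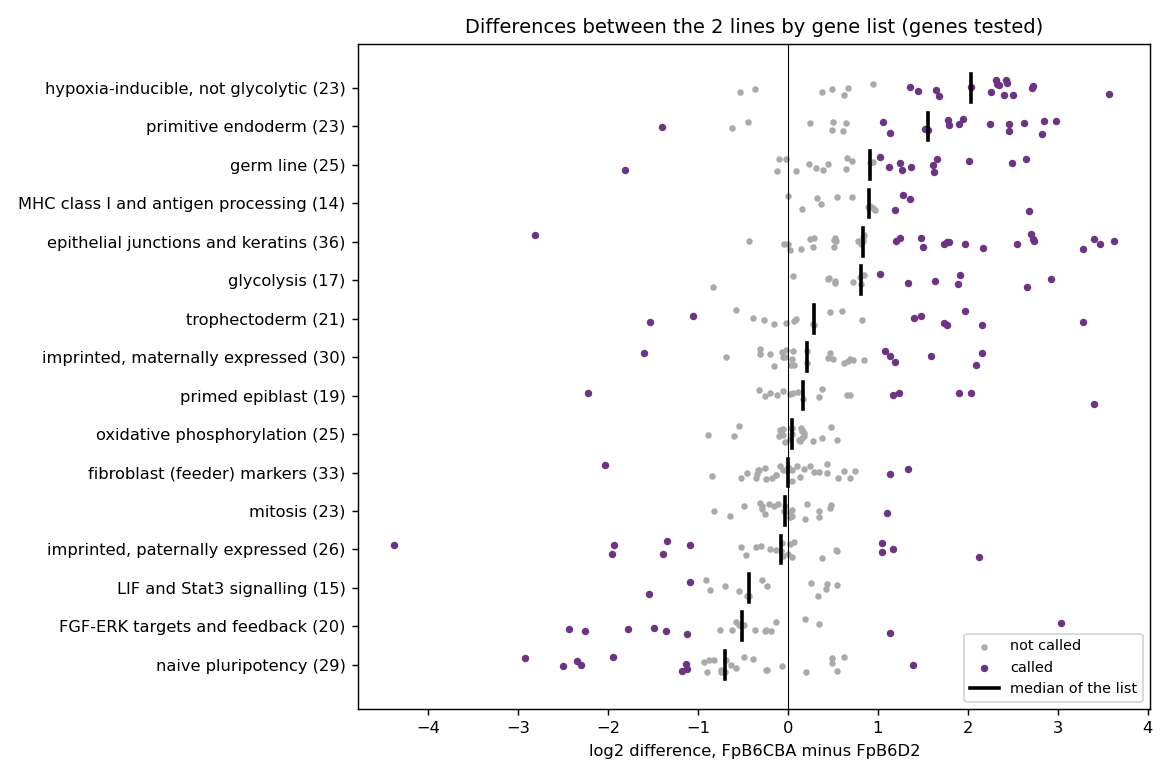
Log2 difference (FpB6CBA minus FpB6D2, horizontal axis) of each tested gene of 16 gene lists (rows, number tested in brackets). Purple points are called genes, grey points are not called, and black bars are list medians, which run from 2.04 for hypoxia-inducible genes to -0.7 for naive pluripotency genes.

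Hypoxia-inducible genes outside glycolysis were higher in FpB6CBA. Of 23 genes tested, 16 (69.6%) were called higher and 0 lower, with a median difference of 2.04. The background for genes called higher is 6.03%. Ndrg1, a stress-response gene used as a marker of hypoxia, had log2 values of 10.65, 10.66 and 10.64 in FpB6CBA, against 7.16, 7.13 and 6.96 in FpB6D2. Every FpB6CBA array lay above every FpB6D2 array, and Ndrg1 was 11.8-fold higher (log2 difference 3.57 ± 0.09 SE, adjusted p = 9.8e-13). All 4 of its further probe sets differed in the same direction, by 3.17 to 4.10.

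Slc16a3, which encodes the lactate exporter MCT4, was at 9.39, 9.45 and 9.45 in FpB6CBA and at 7.1, 6.51 and 6.49 in FpB6D2 (6.63-fold higher, adjusted p = 8.4e-10). Adm, which encodes the vasodilator peptide adrenomedullin, was at 8.97, 8.93 and 9.08, against 6.36, 6.36 and 6.12 in FpB6D2 (6.56-fold higher). Pdk1, a kinase that holds pyruvate back from mitochondrial oxidation, was at 10.49, 10.46 and 10.38, against 7.98, 7.87 and 7.97 in FpB6D2 (5.67-fold higher). The arrays of the lines did not overlap in these genes, as in 62.3% of all genes tested. Egln1, an oxygen sensor that marks hypoxia-inducible factor for breakdown, was 5.44-fold higher, and Pfkfb3, whose product makes an activator of phosphofructokinase, was 5.36-fold higher. The further probe set of Pfkfb3 differed by 0.34, and that of Egln1 by 1.57. The other called members were P4ha2, Ero1a, P4ha1, Selenbp1, Bnip3, Egln3, Anxa2, Ankrd37, Bhlhe40 and Ddit4, at log2 differences between 1.36 and 2.40. The 7 members that were not called ranged from -0.53 (Pfkfb4) to 0.95 (Mxi1) and included the angiogenic factor gene Vegfa at 0.49.

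Hypoxia-inducible factor binds DNA at core letters that include ACGTG. Upstream regions are shown for 3 of the 6 genes with the largest differences. These 3 were chosen because they hold ACGTG, and genes without it were passed over. Each region runs from 250 bases before the start of the gene to the start, 5′ to 3′ on the gene's strand, with ACGTG in capitals. The sequences are from RefSeq, build GRCm38.p6.
Slc16a3, chr11:120948817-120949066, plus strand: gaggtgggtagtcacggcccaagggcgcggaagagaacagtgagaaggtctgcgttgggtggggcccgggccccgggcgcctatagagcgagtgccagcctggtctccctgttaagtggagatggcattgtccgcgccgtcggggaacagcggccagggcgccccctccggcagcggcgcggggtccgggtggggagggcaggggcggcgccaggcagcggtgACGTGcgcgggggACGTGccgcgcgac
Egln1, chr8:124949255-124949504, minus strand: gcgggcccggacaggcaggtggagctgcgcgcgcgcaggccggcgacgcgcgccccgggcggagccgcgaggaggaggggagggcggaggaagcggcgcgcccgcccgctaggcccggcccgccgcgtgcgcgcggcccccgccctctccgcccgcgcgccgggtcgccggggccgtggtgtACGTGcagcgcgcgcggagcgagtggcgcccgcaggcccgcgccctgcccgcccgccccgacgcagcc
Pfkfb3, chr2:11553930-11554179, minus strand: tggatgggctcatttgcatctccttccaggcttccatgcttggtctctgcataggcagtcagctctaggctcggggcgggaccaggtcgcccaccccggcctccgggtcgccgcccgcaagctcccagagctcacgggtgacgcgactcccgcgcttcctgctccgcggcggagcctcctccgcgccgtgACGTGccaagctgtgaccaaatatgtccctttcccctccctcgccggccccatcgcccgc

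The 5 letters ACGTG were searched on both strands, and they also lie inside the E-box CACGTG that other factors bind. Of the 16 called hypoxia-inducible genes, 14 had a window of 250 upstream bases in the RefSeq table and 12 of these (85.7%) held the letters. The share was 16.6% over all 27025 windows and 21.5% over the windows of the tested genes. The windows of the called hypoxia-inducible genes were richer in CG pairs, with a median of 21.5 pairs against 15 in the tested genes, and the part of this in the motif count was not tested. Adm and Pdk1 did not hold the letters ACGTG in this window, and other forms of the core were not searched. A match describes the sequence and shows no binding. The list was chosen as hypoxia-inducible, and its members that were not called were not counted. The share therefore does not bear on the difference between the lines.

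Glycolysis genes were also called higher, with smaller differences. Of 17 tested, 7 (41.2%) were called higher and 0 lower, against 6.03% and 5.14% of all genes. The list's median was 0.81, and 16 of its genes had a positive difference. The aldolase gene Aldoc was at 10.52, 10.5 and 10.36 in FpB6CBA, against 7.51, 7.49 and 7.60 in FpB6D2 (7.61-fold higher, adjusted p = 7.8e-13). The enolase gene Eno2 was at 6.70, 6.27 and 6.48 in FpB6CBA and below the filter value in FpB6D2, at 3.84, 3.79 and 3.83, so its rise was at least 6.14-fold. Hk1, the hexokinase that traps glucose in the cell, was 3.76-fold higher and Pfkl, a subunit of phosphofructokinase, 3.70-fold higher. Eno3 (3.12-fold), the triose phosphate isomerase gene Tpi1 (2.52-fold) and the glucose transporter gene Slc2a1 (2.02-fold) completed the calls. Slc2a1 lay at the minimum, with a log2 difference of 1.02, and missed it under median centring, quantile normalization and without replicate 2 of FpB6D2.

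Of 25 oxidative phosphorylation genes, 0 were called, against 11.2% of all genes in either direction, with differences between -0.89 and 0.54 and a median of 0.04. The mean log2 level of the 23 hypoxia-inducible genes had a median over arrays of 9.10 in FpB6CBA and 7.45 in FpB6D2, against 7.89 in OpB6D2, 8.94 in NmB6D2 and 8.04 in R1. The ranges of FpB6CBA (9.10 to 9.13) and of FpB6D2 (7.40 to 7.47) did not meet those of any other line.

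Primitive endoderm genes were higher in FpB6CBA as well. Of 23 tested, 15 (65.2%) were called higher and 1 lower, against 6.03% and 5.14% of all genes, with a median difference of 1.56. Among the transcription factors that specify this lineage, Gata6 was at 6.99, 6.90 and 6.80 in FpB6CBA, against 5.23, 5.14 and 5.00 in FpB6D2 (3.43-fold higher, adjusted p = 1.1e-08). Sox17 was at 6.30, 6.21 and 6.42, against 4.35, 4.72 and 4.50 in FpB6D2 (3.45-fold higher). Gata4 was at 5.85, 5.33 and 5.35, against 3.85, 4.19 and 3.81 in FpB6D2 (2.95-fold higher). Further probe sets differed by 0.5 for Gata4, 1.76 for Gata6 and 2.38 for Sox17. Gata6, Sox17 and Gata4 averaged 6.90, 6.31 and 5.51 in FpB6CBA. Their means were 6.36, 6.21 and 7.40 in R1, 6.26, 4.32 and 4.13 in OpB6D2 and 5.39, 4.27 and 4.51 in NmB6D2. Values near those of FpB6CBA, or above them, were thus also found in other lines. The lineage receptor gene Pdgfra was 2.09-fold higher and lost its call when its probe sets were averaged, in the fit with a replicate block and without any of 3 arrays (FpB6CBA replicates 1 and 2, FpB6D2 replicate 3). Pdgfra averaged 6.41 in FpB6CBA, against 6.93 in R1, 6.26 in OpB6D2 and 5.19 in NmB6D2.

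Genes of endocytosis and basement membrane, functions of the visceral and parietal endoderm, showed the largest differences of the list. Cubn, the cubilin receptor, was at 7.86, 8.24 and 6.99 in FpB6CBA, against 4.53, 4.94 and 4.69 in FpB6D2 (7.88-fold higher, adjusted p = 2.5e-07). Replicate 3 of FpB6CBA, the array with displaced controls, was the lowest of its line for Cubn, and for Lama1 too. Srgn, a proteoglycan gene, was 7.21-fold higher, the endocytic adaptor gene Dab2 7.09-fold, the laminin gene Lama1 6.18-fold, and Lrp2 and Amn, partners of cubilin in uptake, 5.51-fold each. The list held the same 15 calls in number without replicate 3 of FpB6CBA. Sox7 was the call in the other direction (2.64-fold lower), and it lost the call when probe sets were averaged. The list's mean level lay between 7.15 and 7.33 on the FpB6CBA arrays and between 5.98 and 6.06 on the FpB6D2 arrays, and the arrays of OpB6D2, NmB6D2 and R1 lay between 6.0 and 6.38. In these bulk samples, fewer cells of a type and less RNA per cell cannot be told apart.

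**Figure D2:**
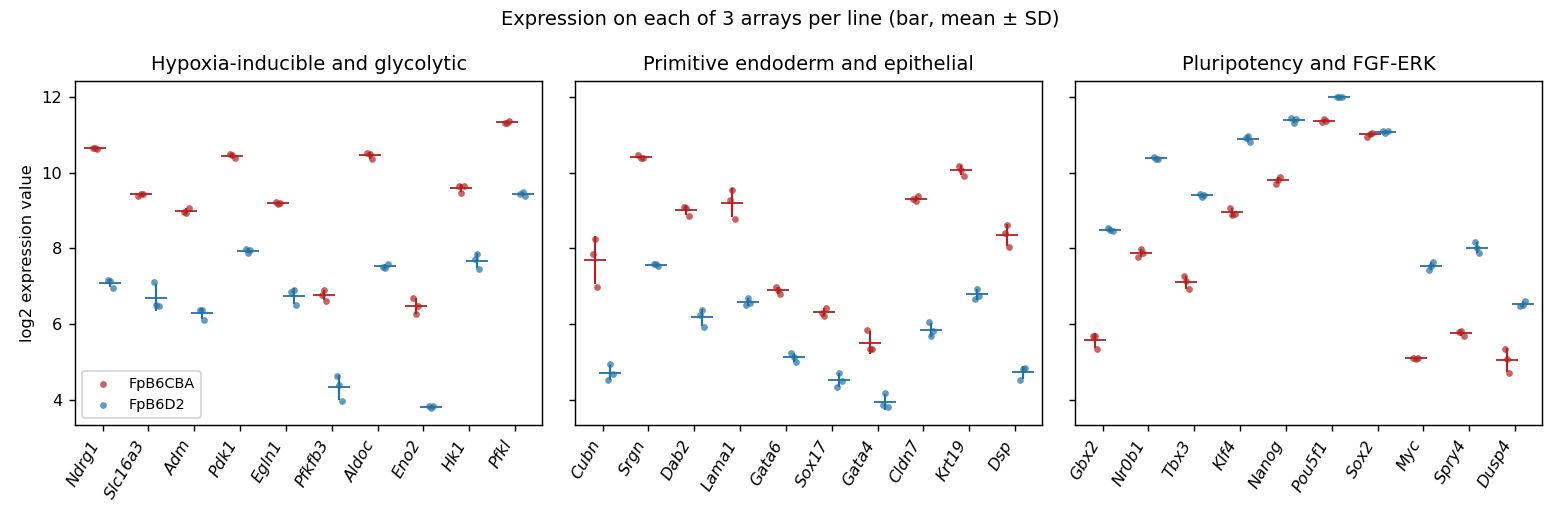
Log2 expression value (vertical axis) of 30 genes on each array, with FpB6CBA in red to the left of FpB6D2 in blue. Points are arrays, horizontal bars are means and vertical bars are SD over 3 arrays. The hypoxia-inducible, glycolytic, endoderm and epithelial genes lie higher in FpB6CBA, Sox2 overlaps, Pou5f1 lies lower by less than the 2-fold minimum, and the other pluripotency and FGF-ERK genes shown lie lower by more.

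Epithelial genes formed a further large group. Of 36 tested, 17 (47.2%) were called higher and 1 lower in FpB6CBA, against 6.03% and 5.14% of all genes. The list's median was 0.84, and 33 of its genes had a positive difference. Dsp, which encodes the desmosome protein desmoplakin, was at 8.40, 8.63 and 8.03 in FpB6CBA, against 4.53, 4.82 and 4.83 in FpB6D2 (12.4-fold higher, adjusted p = 4.7e-11). The tight junction genes Cldn7 and Cldn6 were 11.0-fold and 10.6-fold higher, and the keratin gene Krt19 was 9.70-fold higher. Tjp3, a tight junction scaffold gene, was 6.68-fold higher. Ocln, which encodes occludin, was below the filter value in FpB6D2 at 3.82, 3.82 and 3.79 and reached 6.58, 6.71 and 6.33 in FpB6CBA, which makes it at least 6.39-fold higher.

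Krtdap, a gene of differentiating keratinocytes, was 7.02-fold lower, and was the sole epithelial call in that direction. The list's mean level ran from 7.18 to 7.26 on the FpB6CBA arrays and from 6.05 to 6.11 on the FpB6D2 arrays. It was 5.91 to 5.95 in OpB6D2, 7.30 to 7.34 in NmB6D2 and 6.5 to 6.56 in R1, so the FpB6CBA arrays lay nearest to those of the fertilised line NmB6D2.

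Trophectoderm genes were called higher in 7 of 21 cases (33.3%) and lower in 2 (9.52%), against 6.03% and 5.14% of all genes. Of the 7, 5 (Cldn4, Krt7, Krt8, Krt18 and Krt19) also belong to the epithelial list. The other calls were Ascl2, an imprinted factor gene of the placenta (4.47-fold higher), and Plet1 (2.63-fold higher), which lost the call when probe sets were averaged. Tead4, which directs trophectoderm fate, was 2.90-fold lower, and Gata3 was 2.08-fold lower at values near the filter. Gata3 lost the call in the fit with a replicate block and without replicate 1 of FpB6CBA or replicate 2 of FpB6D2. The lineage factors Cdx2 (mean 4.03 in FpB6CBA and 4.19 in FpB6D2) and Eomes (7.37 and 7.29) were not called, and Elf5 lay below the filter value in both lines.

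Naive pluripotency genes were lower in FpB6CBA. Of 29 tested, 8 (27.6%) were called lower and 1 higher, against 5.14% of all genes called lower. The list's median was -0.70, and 23 of the 29 had a negative difference. For Dppa2 and Sall4, which were not called and were singled out after their values were seen, the probe sets disagreed in direction. Dppa2 differed by -0.90 and its further probe set by 5.58, and Sall4 by -0.39 and 0.98. Gbx2, a homeobox gene downstream of LIF, was at 5.69, 5.68 and 5.33 in FpB6CBA, against 8.55, 8.49 and 8.45 in FpB6D2 (7.63-fold lower, adjusted p = 5.5e-12). Nr0b1, an X-linked nuclear receptor gene that works with Pou5f1, was at 7.76, 7.98 and 7.89, against 10.41, 10.35 and 10.37 in FpB6D2 (5.66-fold lower). Klf4, a core factor of the naive network, was at 9.08, 8.88 and 8.90, against 10.93, 10.97 and 10.81 in FpB6D2 (3.87-fold lower). The arrays of the lines did not overlap in these genes, as in 62.3% of all genes tested.

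Zfp57, which protects imprints from erasure, was 5.11-fold lower. Tbx3, a T-box factor gene that sustains self-renewal, was 4.92-fold lower, and Jam2, an adhesion gene, 2.27-fold lower. Further probe sets of Jam2 differed by -4.05, -1.46 and -0.87 and, in the opposite direction, by 0.76. The last calls were Gdf3 and Tcl1. The higher gene was Lin28a, an RNA-binding protein gene that blocks let-7 maturation (2.63-fold).

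The core factors differed among themselves. Nanog was at 9.71, 9.82 and 9.89 in FpB6CBA, against 11.45, 11.31 and 11.43 in FpB6D2 (3.01-fold lower, adjusted p = 8.5e-11). Pou5f1 was at 11.35, 11.41 and 11.37, against 12.01, 12 and 12 in FpB6D2, a log2 difference of -0.62 ± 0.06 SE (adjusted p = 4.5e-07) that missed the 2-fold minimum. Sox2 was at 10.95, 11.03 and 11.06, against 11.10, 11.05 and 11.10 in FpB6D2, and overlapped (-0.07, adjusted p = 0.41). The mean level of the naive list lay between 9.02 and 9.08 on the FpB6CBA arrays and between 9.74 and 9.81 on the FpB6D2 arrays. NmB6D2 lay between 9.02 and 9.05, and R1 (9.37 to 9.49) and OpB6D2 (9.63 to 9.67) in between.

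Primed epiblast genes, which mark the next stage of the epiblast, had 5 of 19 (26.3%) called higher and 1 (5.26%) lower. The shares of all genes were 6.03% and 5.14%, and the list's median was 0.17. Cldn6 and Foxa2 are also epithelial and endoderm genes, and the others were Cd24a, a surface antigen gene (4.07-fold higher), Lef1, a Wnt effector (2.36-fold higher), and Otx2, a factor of the early epiblast (2.25-fold higher). Tcf15, a factor of epiblast cells leaving the naive state, was 4.66-fold lower. The classical marker Fgf5 lay below the filter value on average in both lines.

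Of 20 FGF-ERK targets and feedback genes, 6 (30%) were called lower and 2 (10%) higher, against 5.14% and 6.03% of all genes, with a median of -0.51. Myc, the proliferation factor, was at 5.11, 5.08 and 5.10 in FpB6CBA, against 7.44, 7.53 and 7.63 in FpB6D2 (5.40-fold lower, adjusted p = 8.5e-13). Spry4, a feedback inhibitor of the pathway, was at 5.78, 5.81 and 5.69, against 8.17, 8.01 and 7.89 in FpB6D2 (4.80-fold lower). Myc averaged 7.61 in OpB6D2, 7.40 in NmB6D2 and 7.90 in R1, so FpB6CBA held the lowest mean of the 5 lines.

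Fgfbp1 (3.42-fold), the ERK phosphatase genes Dusp4 (2.80-fold) and Dusp5 (2.57-fold) and the inhibitor gene Spry2 (2.17-fold) were also lower, the last losing its call when probe sets were averaged. Against this, the immediate early gene Fos was at 9.66, 9.33 and 9.66 in FpB6CBA and at 6.52, 6.47 and 6.55 in FpB6D2 (8.21-fold higher), and Ier3 was 2.18-fold higher. Among 15 LIF and Stat3 genes, 2 (13.3%) were called lower and 0 higher: the feedback inhibitor gene Socs2 (2.90-fold) and Bcl3 (2.12-fold). Of 25 Nodal and TGF-beta genes, 4 (16%) were called lower and 2 (8%) higher. Both lists are to be read against the 5.14% of all genes called lower and 6.03% called higher. Inhbb, an activin subunit gene, was 7.34-fold lower, and the BMP targets Id3 and Id1 were 3.79-fold and 2.05-fold lower, the other lower call being Gdf3. The further probe set of Inhbb differed by less, by -0.89. Skil (2.21-fold), an inhibitor of Smad signalling, and the activin receptor gene Acvr1b (2.01-fold) were higher. When probe sets were averaged, Socs2, Skil and Acvr1b lost their calls. Acvr1b also lost it under median centring, with a replicate block and without any of 3 arrays, and Id1 without replicate 1 of FpB6CBA or replicate 2 of FpB6D2.

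Imprinted genes moved in both directions, to be read against the 5.14% of all genes called lower and 6.03% called higher. Of 26 paternally expressed genes tested, 6 (23.1%) were called lower and 4 (15.4%) higher in FpB6CBA, and of 30 maternally expressed genes 1 was lower and 6 (20%) higher. Both lines are parthenogenetic, so the comparison does not set maternal against paternal copies.

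**Figure D3:**
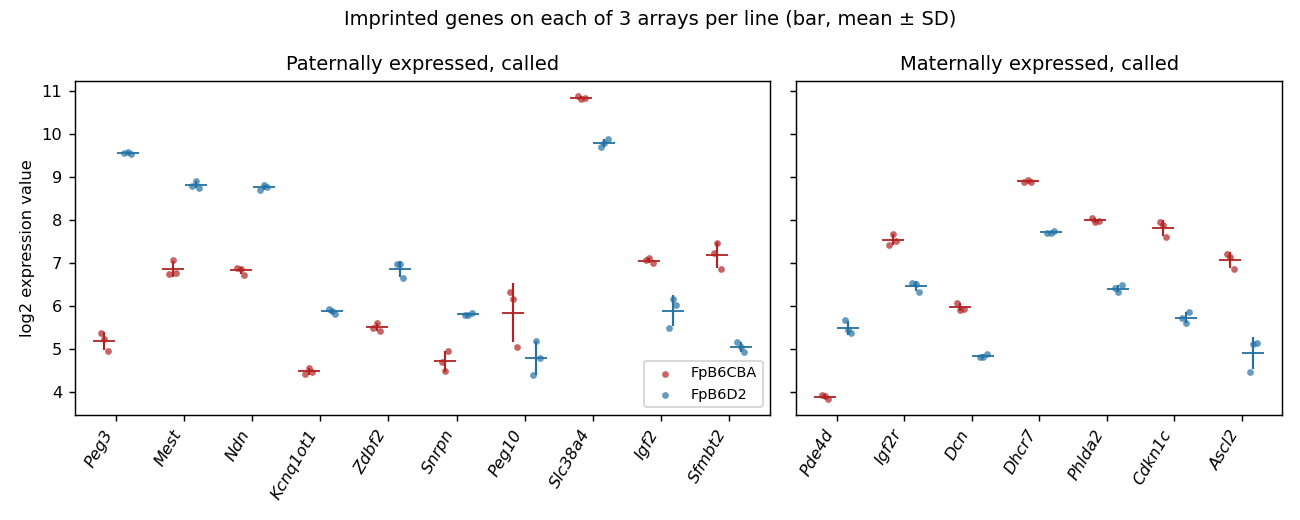
Log2 expression value (vertical axis) of the called imprinted genes on each array, paternally expressed genes on the left and maternally expressed genes on the right, with FpB6CBA in red to the left of FpB6D2 in blue. Points are arrays, horizontal bars means and vertical bars SD over 3 arrays. Only Peg10 overlaps between the lines.

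Peg3, a zinc finger gene read from the paternal copy, was at 5.37, 5.23 and 4.95 in FpB6CBA, against 9.57, 9.59 and 9.53 in FpB6D2 (20.8-fold lower, log2 difference -4.38 ± 0.11 SE, adjusted p = 9.8e-13). Its further probe sets differed by -4.43 and -4.04. Peg3 averaged 10.23 in OpB6D2, 8.87 in NmB6D2 and 10.21 in R1, which put FpB6CBA far below the other 4 lines, OpB6D2 included. Mest, a hydrolase family gene, was at 6.74, 7.07 and 6.77, against 8.80, 8.91 and 8.75 in FpB6D2 (3.9-fold lower). Ndn, which encodes the neuronal growth suppressor necdin, was at 6.89, 6.86 and 6.73, against 8.69, 8.82 and 8.77 in FpB6D2 (3.82-fold lower), and its 4 further probe sets differed by -1.93 to -1.5.

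Kcnq1ot1, a long RNA that silences its neighbours on the paternal copy, was 2.62-fold lower. Within the cluster it acts on, the growth inhibitor gene Cdkn1c was at 7.96, 7.88 and 7.61 in FpB6CBA, against 5.73, 5.60 and 5.85 in FpB6D2 (4.26-fold higher, adjusted p = 3.8e-10). Phlda2, a regulator of placental growth, was 3.01-fold higher and Ascl2 4.47-fold higher, while Dhcr7, an enzyme of cholesterol synthesis that is listed with the same cluster, was 2.28-fold higher. Kcnq1ot1 averaged 4.48 in FpB6CBA and lay between 5.46 and 5.92 in the other 4 lines.

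Zdbf2 (2.56-fold) and the splicing gene Snrpn (2.14-fold) were lower, Snrpn without a call once replicate 2 of FpB6CBA was left out. Igf2, the fetal growth factor gene, was at 7.06, 7.11 and 7.0 in FpB6CBA, against 5.48, 6.17 and 6.03 in FpB6D2 (2.24-fold higher, adjusted p = 1.6e-05). It lost the call without replicate 1 of FpB6D2, its lowest array, and when probe sets were averaged, and it stood at 9.73 in NmB6D2 and 11.34 in R1. Igf2r, the receptor that clears this factor, was 2.12-fold higher and lost the call when probe sets were averaged. Sfmbt2, a Polycomb gene, was 4.39-fold higher, and the amino acid transporter gene Slc38a4 was 2.06-fold higher.

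Peg10, at 6.32, 6.17 and 5.05 in FpB6CBA and 4.40, 5.19 and 4.80 in FpB6D2, was the call whose arrays overlapped (2.07-fold, adjusted p = 0.0041). It lost the call with a replicate block and without any of 3 arrays (FpB6CBA replicates 1 and 2, FpB6D2 replicate 1). Among the maternally expressed genes, Dcn, which is also a fibroblast gene, was 2.19-fold higher and Pde4d 3.04-fold lower, and both lost their calls when probe sets were averaged. Of 17 genes that write, read, remove or protect DNA methylation, 1 (5.88%) was called higher and 1 (5.88%) lower, near the 6.03% and 5.14% of all genes. Dnmt3l, the cofactor that establishes maternal imprints in oocytes, was 2.37-fold higher, and the lower gene was Zfp57. Of 13 Polycomb repressive complex 2 genes, Mtf2 (2.84-fold) and Epop (2.39-fold) were lower (15.4%) and Ezh1 (2.95-fold) was higher (7.69%). Ezh1 lost the call when probe sets were averaged.

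Genes of the X chromosome were lower in FpB6CBA. Of 415 tested, 78 (18.8%) were called lower and 12 (2.89%) higher, against 5.14% and 6.03% of all genes. The median difference was -0.47. The medians of the autosomes ran from -0.08 to 0.05. Each array was summarised by the median deviation of its X-linked genes from the mean over 15 arrays. It was -0.164, -0.172 and -0.227 on the FpB6CBA arrays and 0.254, 0.263 and 0.246 on the FpB6D2 arrays, and the groups did not overlap. The difference of -0.442 had an exact two-sided permutation p = 0.1, the smallest that 3 against 3 arrays allow. The autosomal medians lay between 0.007 and 0.024 in FpB6CBA and between -0.002 and -0.001 in FpB6D2.

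**Figure D4:**
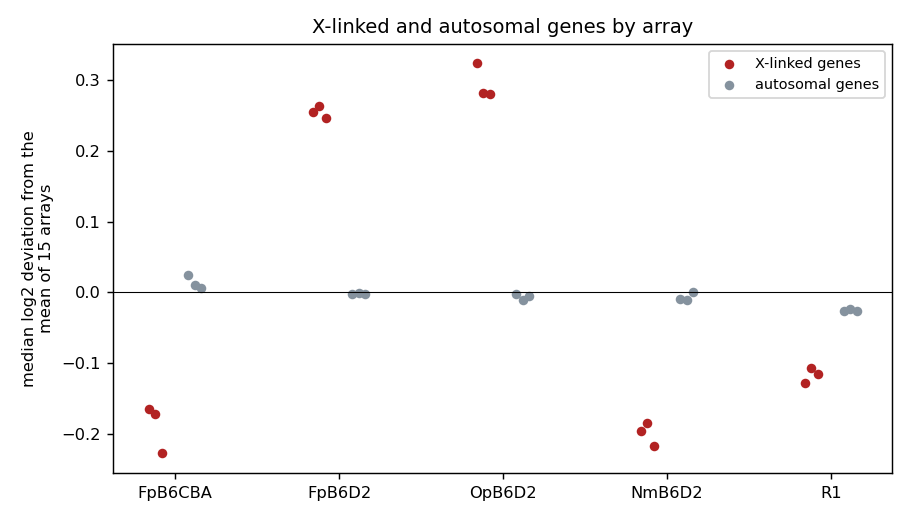
Median deviation of X-linked (red) and autosomal (grey) genes from their mean over 15 arrays (vertical axis, log2) on each of the 3 arrays of the 5 lines. The FpB6CBA arrays lie between -0.227 and -0.164 for X-linked genes, near NmB6D2 and R1, and the FpB6D2 arrays between 0.246 and 0.263, near OpB6D2.

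In the other lines the X-linked value was 0.28 to 0.323 in OpB6D2, -0.217 to -0.184 in NmB6D2 and -0.128 to -0.106 in R1. The Y-linked list, read as a sign of male cells, averaged 3.27 in FpB6CBA and 3.28 in FpB6D2 (medians over arrays), against 4.39 in NmB6D2 and 4.23 in R1. Xist, which silences an X chromosome by coating it, was at 4.59, 4.41 and 4.61 in FpB6CBA and at 4.57, 4.78 and 4.42 in FpB6D2, which overlap (log2 difference -0.05 ± 0.15 SE, adjusted p = 0.78).

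The X-linked difference ran along the chromosome. All 14 consecutive stretches of about 30 genes had a negative median, from -0.76 to -0.15, and 13 lay under -0.2. Of 411 autosomal stretches, whose medians ran from -0.40 to 0.34, 20 lay under -0.2. Dcaf12l1 was the X-linked gene with the largest fall, at 5.39, 5.49 and 5.36 in FpB6CBA and 9.19, 9.14 and 9.16 in FpB6D2 (13.4-fold lower). Mcf2, a guanine nucleotide exchange factor gene (at least 6.31-fold), Alg13, a glycosylation gene (7.27-fold), Wdr45, an autophagy gene (5.55-fold), and the transporter family gene Slc10a3 (5.38-fold) were lower too, as was Nr0b1. The histone demethylase gene Kdm6a, which escapes X inactivation, was 2.17-fold lower, without a call when probe sets were averaged and without replicate 1 of FpB6CBA.

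Against the shift, 12 X-linked genes (2.89%) were higher, with 6.03% called higher over all genes. Amot, a Hippo pathway gene, was at 7.08, 7.20 and 6.49 in FpB6CBA, against 3.92, 4.77 and 4.16 in FpB6D2 (6.22-fold higher). Cited1, a transcriptional coactivator gene, was 4.34-fold higher, and Rhox13, a homeobox gene of germ cells, 4.01-fold higher. Nrk (at least 3.99-fold), Drp2 (2.79-fold) and S100g (at least 1.68-fold above the filter value) followed, and Amot, Nrk and Drp2 lost their calls when probe sets were averaged.

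**Figure D5:**
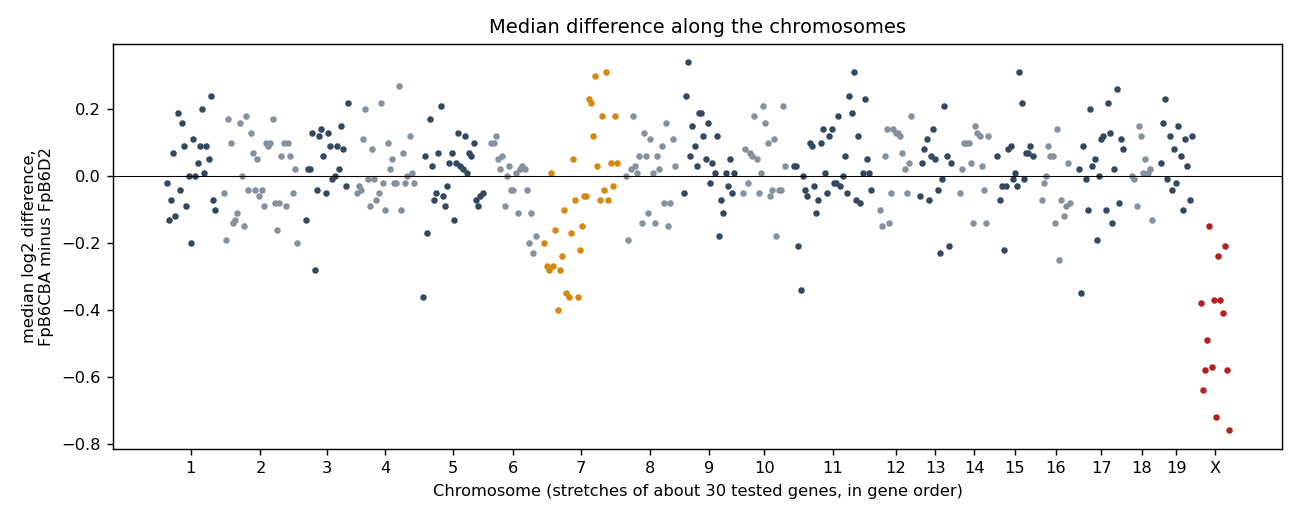
Median log2 difference (FpB6CBA minus FpB6D2, vertical axis) of consecutive stretches of about 30 tested genes along each chromosome (horizontal axis, in gene order). X is red and chromosome 7 orange, and the other chromosomes alternate in grey. All 14 X stretches lie below 0, and 10 of the 20 autosomal stretches under -0.2 are on chromosome 7.

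Chromosome 7 held 10 of the 20 autosomal stretches under -0.2. Its first 20 stretches, with 611 genes, had a median of -0.19, with 75 genes called lower and 21 higher. Its last 14 stretches, with 420 genes, had a median of 0.08, with 12 lower and 36 higher. Over the whole chromosome, 8.44% of the genes were called lower and 5.53% higher, against 5.14% and 6.03% of all genes tested. These sections were set after the values were seen and carry no test. Peg3, Zfp936, Zfp819, Snhg14, Usp17la and Zfp59 had the largest falls on the chromosome, and Cyp2s1, Kndc1, Ctsc, Adm, Prss8 and Tdrd12 the largest rises.

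Many of the lower genes of that first section encode Zfp zinc finger proteins. Over all chromosomes, 280 genes with a Zfp symbol were tested, of which 39 were called lower and 3 higher, with a median of -0.30. The shares of all genes tested were 5.14% lower and 6.03% higher. On chromosome 7, 18 of 70 were lower and 0 higher (median -0.51), and on the other chromosomes 21 of 210 were lower (median -0.27). Without its Zfp genes, the first section of chromosome 7 still had a median of -0.17 over 552 genes. Zfp936 was at 5.02, 5.19 and 4.45 in FpB6CBA and 8.14, 8.11 and 8.14 in FpB6D2 (9.49-fold lower), and Zfp819, at 5.25, 5.33 and 5.23 against 8.43, 8.54 and 8.5 in FpB6D2, was 9.33-fold lower. This set was also chosen after the values were seen.

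Germ line genes were called higher in 11 of 25 cases (44.0%, against 6.03% of all genes) and lower in 1, with a median of 0.91. Tdrd12, a gene of the piRNA pathway that silences transposons, was at 8.86, 8.85 and 8.72 in FpB6CBA, against 6.14, 6.25 and 6.10 in FpB6D2 (6.26-fold higher, adjusted p = 3.6e-11). Smc1b, the cohesin subunit of meiosis, was 5.63-fold higher, and the synaptonemal complex gene Sycp1 was 3.17-fold higher. Slc25a31 (4.03-fold), the RNA helicase gene Ddx4 (3.08-fold) and Stra8 (3.06-fold), a gatekeeper of meiosis, were higher too. Tex19.1, which restrains transposons, was 3.51-fold lower.

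Of 11 oocyte and maternal effect genes tested, Khdc3 (5.00-fold) and Nlrp14 (at least 3.21-fold) were higher (18.2%, against 6.03% of all genes) and 0 lower. Khdc3 belongs to the subcortical complex of the oocyte. In each of Bmp15, Figla, Nobox, Sohlh1, Mos and Zp2 the mean of both lines lay below the filter value.

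Feeder cells are a possible source of fibroblast RNA in stem cell cultures. Of 33 fibroblast markers tested, 2 (6.06%) were called higher (Postn, 2.52-fold, and Dcn) and 1 (3.03%) lower (Ccl2, 4.10-fold). The shares of all genes were 6.03% and 5.14%, and the list's median was 0.00. The mean level of the list ran from 7.30 to 7.60 on the FpB6CBA arrays and from 7.40 to 7.48 on the FpB6D2 arrays, which overlap. The defining markers Col1a1 (7.39 in FpB6CBA and 7.05 in FpB6D2), Col1a2 (8.23 and 7.68), Col3a1 (6.11 and 5.49) and Thy1 (7.20 and 7.46) were not called, and none lay at the filter value.

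The position of the other lines was read for the called genes. The OpB6D2 mean lay nearer to FpB6D2 than to FpB6CBA for 596 of the 772 genes higher and 488 of the 658 genes lower in FpB6CBA. The NmB6D2 mean lay nearer to FpB6CBA for 522 and 545 of these genes. R1 was nearer to FpB6D2 for 520 and 392. These counts describe levels and were not tested.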

How the data were processed

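Per the labels, total RNA was labelled with biotin by in vitro transcription and hybridised to Affymetrix arrays. The authors deposited RMA values made with the affy package, per the submitters' processing notes, which give no versions. The log2 unit of these deposited values was inferred from their range of 1.99 to 13.96, since the log base is not given in the sources used here. Of 45101 probe sets, 34945 carried 1 gene symbol. The brightest probe set on average over 15 arrays stood for its gene. Genes reaching 3.864 on at least 3 arrays were tested (12813 kept, 5380 removed). No further normalisation was applied.

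FpB6CBA minus FpB6D2 was a contrast in a limma 3.58.1 fit (R 4.3.3, lmFit and eBayes) with a mean for each of 5 lines over all 15 arrays, which shares 1 estimate of the spread. Benjamini-Hochberg adjustment ran over all genes tested. A call needs an adjusted p under 0.05 and 2-fold. SE is that of the fit and n is 3 arrays per line. Where a line's mean lay below 3.864, the fold is a bound computed against that value, and ranks use the fitted difference. Chromosomes and gene order came from the RefSeq gene table of GRCm38.p6, with 18145 of 18193 genes matched. In simulated data with 12813 genes, 200 of 200 genes changed by 1.5 log2 units were recovered, with 0 false calls. The simulated noise was independent between arrays, with the spread within lines and no array effect. The result therefore does not cover changes near 2-fold, displaced arrays or arrays that are not independent. Plots used matplotlib 3.10.9.

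The comparison and the gene lists were chosen with earlier results of these data known, so list counts are descriptions. Named genes are the called genes without overlap at both ends of the ranking, 12 rises and 12 falls (clone names left out), up to 6 called members per list and direction, the called imprinted genes, Xist, Pou5f1, Nanog and Sox2, the cell type markers, and up to 6 called genes each way per chromosome described. Array numbers 1 and 3 are shared by the lines' titles. Deviations of same-numbered arrays from their line means correlated at 0.011 and 0.127, so the numbers were not taken as pairs. The number of arrays limits the precision. Alternatives were other filters, probe set choices, median centring, quantile normalization, array weights, an intensity trend, the 6 arrays alone, a replicate block, other thresholds, no sex-linked genes, and each array left out.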

Additional observations from a re-analysis of the deposited data

How the results depend on the processing

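The 1430 calls ranged from 998 when probe sets were averaged to 3499 (1820 higher, 1679 lower) with a 1.5-fold minimum. Taking every probe set as a feature gave 2265 calls (1198 higher, 1067 lower). At the 1.5-fold minimum, 11 glycolysis genes and 11 maternally expressed imprinted genes were higher and 17 naive pluripotency genes lower, by the construction of that threshold. With each array left out in turn, between 1417 and 1470 genes were called. The X-linked median of -0.47 was -0.57 with a filter 1 log2 unit higher, -0.51 under median centring and -0.41 with probe sets averaged, and between -0.49 and -0.43 with each array left out. Paternally expressed genes called higher numbered 2 without replicate 1 of FpB6D2 and up to 4 without other arrays. The difference of Xist, which was not called, changed sign to 0.12 with a replicate block and ranged from -0.14 to 0.04 with each array left out, including 0.01 without replicate 2 of FpB6CBA. The causes were not tested. The fit with a replicate block, which treats equal array numbers as pairs, called 1434 genes. Of 196 called genes followed over 18 settings, 159 kept the call in every setting in which they were tested. Some settings, such as the fit without sex-linked genes, did not test every followed gene. The followed counts of hypoxia-inducible, primitive endoderm, epithelial, germ line and trophectoderm genes called higher, and of FGF-ERK and paternally expressed genes called lower, stayed within 1.5 times their value. The counts of other lists were not followed across the settings. Low signal limits genes near 3.864, where folds are bounds.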

Other observations

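Genes of antigen presentation were among the groups that differed. Of 14 MHC class I and antigen processing genes tested, 4 (28.6%) were called higher in FpB6CBA and 0 lower, with a median of 0.90. Of all genes, 6.03% were called higher. The class I gene H2-K1 was at 7.89, 7.85 and 7.61 in FpB6CBA and at 6.47, 6.52 and 6.5 in FpB6D2 (2.44-fold higher, limma adjusted p = 1.1e-09). H2-D1 was 2.57-fold higher, and its 7 further probe sets differed by 0.16 to 2.72. H2-D1 lost the call when probe sets that match several transcripts were left out. H2-Bl was at least 5.94-fold higher, and the immunoproteasome gene Psmb9 was 2.28-fold higher. Class I genes are near-identical copies, so their probe sets can share transcripts. Of 25 interferon response genes, 4 (16%) were higher (Isg20, Oasl2, Stat2 and Ifi27) and 1 (4%) lower (Xaf1), against 6.03% and 5.14% of all genes.

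Of 12 neuroectoderm genes, 5 (41.7%) were lower and 1 (8.33%) higher, against 5.14% and 6.03% of all genes. The 5 include Gbx2, which is also on the naive pluripotency list. Olig2, a glial lineage factor gene, was 4.34-fold lower and the neuronal tubulin gene Tubb3 2.79-fold lower. Among 26 glutathione and xenobiotic enzyme genes, 4 (15.4%) were higher and 1 (3.85%) lower. Gpx2, a glutathione peroxidase gene, was at 9.01, 9.08 and 9.06 in FpB6CBA and 6.72, 6.59 and 6.73 in FpB6D2 (5.15-fold higher), and Gstp1 was 2.33-fold higher. Clu, the clusterin gene, was 4.03-fold higher, and the apolipoprotein genes Apoc2 (2.98-fold) and Apom (2.22-fold) were lower. The linker histone gene H1f2 was 3.35-fold higher and H2aw 4.77-fold higher, 2 of 7 histone genes tested (28.6%).

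Other lists held 1 or 2 calls in a direction, to be read against the 6.03% of all genes called higher and 5.14% called lower. Mitosis genes had 1 higher of 23 (4.35%; Mki67, 2.14-fold), p53 targets 1 of 21 (4.76%; Tnfrsf10b), Wnt signalling genes 1 higher (Lef1) and 1 lower (Notum) of 26, and cholesterol synthesis genes 1 higher (Dhcr7) and 1 lower (the X-linked gene Ebp) of 20. Retinoic acid genes had 2 higher (Stra8 and Cyp26a1) and 1 lower (Meis2) of 14, which is 14.3% and 7.14%. Foxa2 and Pdgfra, which are also endoderm genes, were the 2 higher of 16 mesendoderm genes (12.5%). Lyz2, a myeloid lysozyme gene, was at least 3.17-fold higher, in a blood and endothelium list of 11 tested with no other call. Of 11 X-inactivation and escape genes, Mid1 and Kdm6a were lower (18.2%).

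Among 9160 probe sets with no gene symbol, 1956 reached the filter value, and 59 were at least 2-fold higher and 70 at least 2-fold lower without overlap between the arrays. This rule used no adjusted p and so differs from that of the calls, which took in 6.03% of all genes as higher and 5.14% as lower. The largest of the lower ones had a mean of 4.68 ± 0.12 in FpB6CBA and 10.23 ± 0.07 in FpB6D2, and the largest of the higher ones 7.56 ± 0.19 in FpB6CBA and 3.03 ± 0.13 in FpB6D2 (SD, n = 3 arrays each).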
